A study of Mus musculus with 20 samples.

Results

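Type I interferon-stimulated genes are the genes that a cell switches on after interferon alpha or beta binds its receptor. The receptor's kinases Jak1 and Tyk2 phosphorylate Stat2, which acts with Irf9 in ISGF3, a complex that binds the interferon-stimulated response element (ISRE) in the promoters of these genes. Their products sense viral nucleic acids, attach the ubiquitin-like protein ISG15 to other proteins, degrade RNA or block its translation, and hinder viral entry and release. In kidney they are known from lupus nephritis and viral infection, and in many cells some of them are also induced by interferon-gamma. The list described here holds 39 such genes, taken by symbol from the deposited count tables regardless of letter case. All 39 were listed among 15780 genes. All 39 also had at least 10 counts in at least 5 of 20 libraries, as did 13990 genes in all, and these 13990 were tested.

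The kidneys came from 4 groups of 5 mice. All mice were NCr nude (sp/sp homozygous) females, bought at 7 weeks of age, an athymic strain that lacks mature T cells. EIC mice received 6 intravenous injections of engineered immune complexes, each of 0.2 mg human galactose-deficient IgA1 (Gd-IgA1) and 0.1 mg recombinant human IgG autoantibody (rIgG), plus vehicle by gavage for 11 days. EIC + S60 and EIC + S120 mice received the same injections and daily sparsentan, an antagonist of the endothelin and angiotensin receptors, at 60 or 120 mg/kg for 11 days. Control mice received PBS in place of complexes and the same vehicle. Kidneys were taken on day 12, so vehicle gavage, strain and sex were shared by EIC and Control mice, and the human proteins reached only the injected groups. Each library is of 1 mouse, and mice are named here by their label numbers, 65 to 69 for EIC, 71 to 75 for EIC + S60, 77 to 81 for EIC + S120 and 651 to 655 for Control. In lists of values, mice follow the order of those numbers.

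Total counts were 17403376 to 19635495 in EIC, 15220943 to 27948916 in EIC + S60, 15915650 to 18180183 in EIC + S120 and 12662345 to 38651781 in Control, where mice 651 and 652 had the deepest libraries. Levels are given as CPM, the counts of a gene scaled to library size, after TMM scaling of the library sizes. LFC is the log2 fold change from edgeR, followed by an SE from a separate fit of log2 CPM (limma-trend). That fit adds a prior count of 2, so at low counts, as for Zbp1, its SE can be too small for the LFC beside it. The threshold was a Benjamini-Hochberg adjusted p under 0.05 over all 13990 genes by edgeR's quasi-likelihood test. Kidney identity was checked on 10 markers of tubule, podocyte, endothelium and mesangium, which summed to 10796 to 14296 CPM in EIC, 11410 to 14354 CPM in EIC + S60, 11199 to 14217 CPM in EIC + S120 and 12426 to 13389 CPM in Control. The 3 measured markers of plasmacytoid dendritic cells, a main source of interferon alpha, summed to at most 1.43 CPM in any library. Siglech, their defining marker, was at 0 in 2 libraries.

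The promoters of these genes are shown first because the ISRE is the element that ISGF3 binds in such promoters. RefSeq promoter windows on GRCm38.p6, from 250 bases before to 50 bases after the start site, were matched by symbol for 31 of the 39 genes. The core, GAAA, any 2 bases and GAAA, was searched on both strands with overlapping matches allowed. It was in a window of 13 of those 31 genes (41.9%), against 1079 of 27025 genes with a window (3.99%). A gene with several windows, such as Trim30a, counted once if any of them held the core. The gamma-activated site TTCNNNGAA, searched in the same way, was in 8 of 31 (25.8%), against 2582 of 27025 (9.55%). The stretches below end at the base before the start site and read 5′ to 3′ on the gene's strand, with the ISRE cores in capitals. A core on the other strand appears as its reverse complement, and overlapping cores run together. They are those of the ubiquitin-like modifier Isg15 (chr4:156200819-156200918, minus strand), the RNA-binding protein gene Ifit1 (chr19:34640759-34640888, plus strand), the neighbouring near-copies Ifit3 (chr19:34583349-34583528, plus strand) and Ifit3b (chr19:34607747-34607956, plus strand), the oligoadenylate synthetase gene Oas1a (chr5:120907526-120907585, minus strand) and the tetherin gene Bst2 (chr8:71537473-71537622, minus strand).
Isg15: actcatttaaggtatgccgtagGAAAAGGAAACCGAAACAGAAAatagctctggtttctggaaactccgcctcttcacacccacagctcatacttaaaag
Ifit1: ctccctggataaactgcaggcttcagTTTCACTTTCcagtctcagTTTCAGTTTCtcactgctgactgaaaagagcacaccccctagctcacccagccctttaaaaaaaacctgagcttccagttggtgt
Ifit3: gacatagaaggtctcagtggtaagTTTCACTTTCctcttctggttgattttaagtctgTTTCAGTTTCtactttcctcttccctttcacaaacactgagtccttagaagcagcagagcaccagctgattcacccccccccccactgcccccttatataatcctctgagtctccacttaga
Ifit3b: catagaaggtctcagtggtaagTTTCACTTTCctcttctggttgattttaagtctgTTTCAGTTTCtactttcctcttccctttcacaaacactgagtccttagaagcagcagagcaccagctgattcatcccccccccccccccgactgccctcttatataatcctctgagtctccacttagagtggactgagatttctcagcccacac
Oas1a: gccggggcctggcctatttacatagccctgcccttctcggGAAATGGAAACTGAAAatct
Bst2: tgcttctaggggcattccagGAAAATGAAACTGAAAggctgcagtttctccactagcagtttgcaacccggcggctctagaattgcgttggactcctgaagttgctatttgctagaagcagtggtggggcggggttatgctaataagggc
Isg15 holds 3 overlapping cores starting at -78, -72 and -66 from the start site, where -1 is the last base before it. Oas1a holds a pair of overlapping cores at -20 and -14, and Bst2 a pair at -130 and -124. In Ifit1 the cores are separate, at -104 and -85. Ifit3 carries them at -156 and -122, and Ifit3b at -188 and -154, with the same bases in each. Aligned without gaps at an offset of 32 bases, Ifit3 and Ifit3b were identical at 188 of 218 upstream bases (86.2%). A match of these letters is a description of the sequence and not a bound site.

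The first comparison asks what the complexes did to these genes. In EIC vs. Control, 2 of the 39 genes rose past the threshold and 0 fell: Irf9, the DNA-binding subunit of ISGF3 (LFC 0.57 ± 0.14, adjusted p = 0.0335), and Zbp1, which binds nucleic acids in the Z form and can start necroptosis (LFC 2.73 ± 0.60, adjusted p = 0.0419). Over all genes tested, 1.61% rose and 2.97% changed in either direction. The LFC was positive for 34 of the 39 genes, against 47.6% of all genes tested, and its median was 0.45 over the list and -0.01 over all genes. At an unadjusted p under 0.05, 18 of the 39 genes (46.2%) were higher in EIC and 0 lower, where 7.66% of all genes were higher and 16.8% differed in either direction. Without EIC mouse 66, 6 genes passed (Irf9, Zbp1, Trim30a, Sp100, Ifitm3 and Isg15), and 0 passed without EIC mouse 67 or 69 or without Control mouse 651, 652, 653 or 655. In these bulk samples, more cells of a type and more RNA per cell cannot be told apart.

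**Figure D1:**
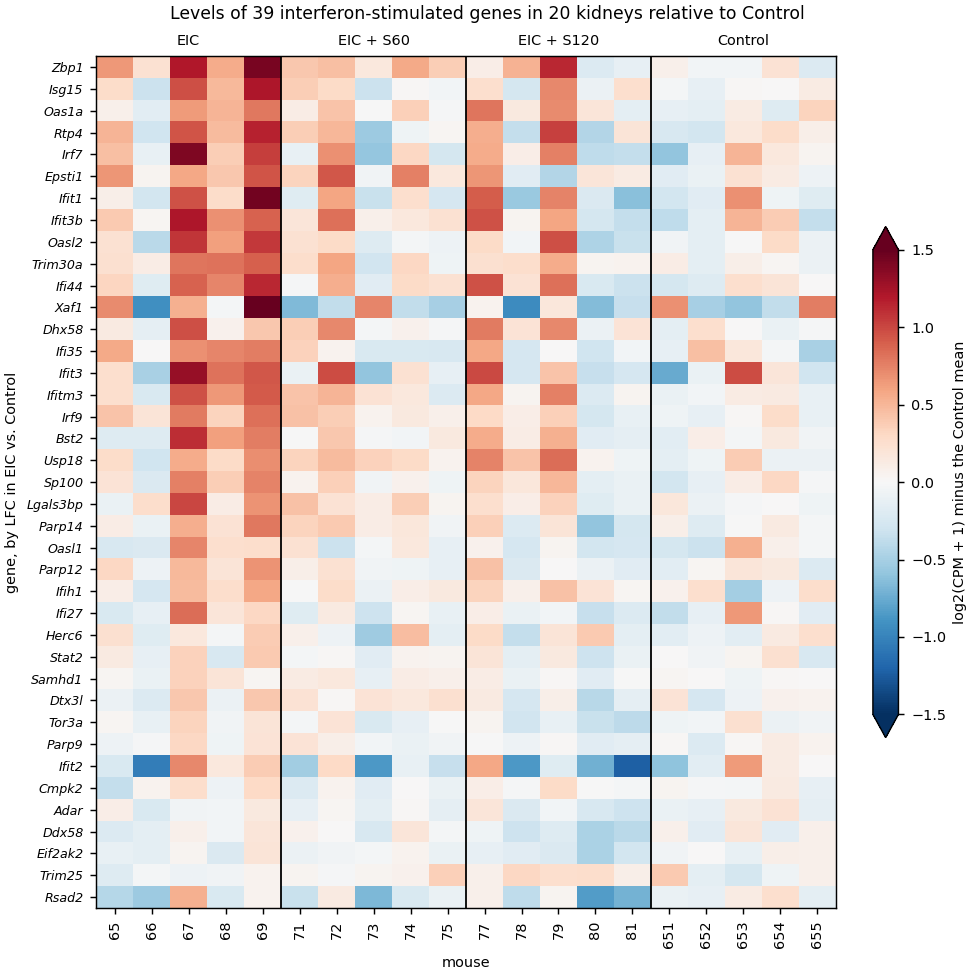
Levels of 39 interferon-stimulated genes (vertical axis, ordered by LFC in EIC vs. Control) in each of 20 mice (horizontal axis, by group), as log2(CPM + 1) minus the Control mean, with red higher and blue lower. EIC mice 67 and 69 are red in most of the upper genes, and single mice of the sparsentan groups (72, 77 and 79) stand above their group. EIC mouse 66 is the lowest of EIC in 29 genes. Its mean log2(CPM + 1) over the 39 genes, 2.98, is below that of every Control mouse.

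The sensors of foreign RNA and DNA were led by Zbp1. It had 0.821, 0.349, 1.65, 0.702 and 2.103 CPM in EIC mice, 0.524, 0.577, 0.291, 0.711 and 0.495 in EIC + S60 mice, 0.237, 0.655, 1.53, 0 and 0.0596 in EIC + S120 mice and 0.216, 0.125, 0.124, 0.3400 and 0 in Control mice. All 5 EIC mice lay above all 5 Control mice for Zbp1, and it was the only gene of the 39 whose EIC and Control values did not overlap, where 1.98% of all genes tested lay apart in this direction. The margin was small, 0.349 CPM in EIC mouse 66 against 0.3400 CPM in Control mouse 654, and the counts behind it were 6 to 40 in EIC and 0 to 8 in Control. The fitted LFC of Zbp1 was also the highest of all 13990 genes tested, at counts where it depends on few reads. Leaving out single libraries kept its LFC between 2.37 and 3.0, but the gene passed the threshold in 7 of 20 such fits. Mouse 69 had the highest EIC value, and without it the adjusted p was 0.109.

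The helicase sensors did not pass the threshold. Ifih1 (MDA5, a sensor of long double-stranded RNA) had 6.61, 4.94, 8.81, 7.48 and 9.57 CPM in EIC mice, 6.03, 7.56, 5.64, 6.57 and 6.86 in EIC + S60 mice, 7.94, 6.49, 8.62, 7.19 and 6.25 in EIC + S120 mice and 6.42, 7.45, 3.98, 5.71 and 7.51 in Control mice. Dhx58 (LGP2, its co-sensor) had 0.966, 0.639, 2.501, 0.877 and 1.37 CPM in EIC mice, 1.31, 1.96, 0.756, 0.876 and 0.778 in EIC + S60 mice, 2.07, 1.07, 1.96, 0.693 and 1.07 in EIC + S120 mice and 0.6202, 1.13, 0.809, 0.6801 and 0.774 in Control mice. The LFC in EIC vs. Control was 0.26 ± 0.17 for Ifih1 and 0.64 ± 0.34 for Dhx58, with overlapping groups. Ddx58 (RIG-I, a sensor of triphosphate-ended RNA) spanned 24.2 to 31.96 CPM in EIC, 23.6 to 31.8 in EIC + S60, 19.9 to 26.8 in EIC + S120 and 24.8 to 31.98 in Control, with an LFC of -0.02 ± 0.10 in EIC vs. Control.

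Among the transcription factors, Irf9 had 15.4, 12.96, 19.95, 14.3 and 20.6 CPM in EIC mice, 15.5, 14.8, 11.6, 12.5 and 11.9 in EIC + S60 mice, 14.05, 12.03, 14.6, 9.14 and 10.3 in EIC + S120 mice and 10.7, 10.2, 11.4, 13.7 and 10.3 in Control mice. EIC mice 65, 67, 68 and 69 were above every Control mouse, while EIC mouse 66 lay below Control mouse 654. The EIC mean was 16.6 ± 3.42 CPM and the Control mean 11.3 ± 1.46 CPM (SD, n = 5 each), a 1.48-fold difference. Irf9 passed the threshold in 14 of the 20 fits that left out 1 library and lost it without EIC mouse 67 or 69 or Control mouse 651, 652, 653 or 655, with adjusted p between 0.0157 and 0.095 over the 20 fits. Irf7, which amplifies interferon production, had 6.28, 3.95, 13.1, 5.91 and 9.99 CPM in EIC mice, 3.93, 7.56, 2.56, 5.64 and 3.43 in EIC + S60 mice, 6.87, 4.704, 8.01, 3.09 and 3.16 in EIC + S120 mice and 2.53, 3.91, 6.595, 4.96 and 4.49 in Control mice. Irf7 was highest in EIC mice 67 and 69, and the other EIC mice fell within the Control range (LFC 0.82 ± 0.35, adjusted p = 0.245). Stat2, a subunit of ISGF3, had 14.8, 12.2, 17.4, 11.2 and 17.98 CPM in EIC mice, 13.2, 13.6, 11.9, 13.9 and 13.9 in EIC + S60 mice, 15.5, 12.03, 14.97, 10.6 and 12.4 in EIC + S120 mice and 13.5, 12.8, 13.9, 16.1 and 11.2 in Control mice. The groups overlapped for Stat2, with a difference of 0.13 ± 0.13 on the log2 scale.

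**Figure D2:**
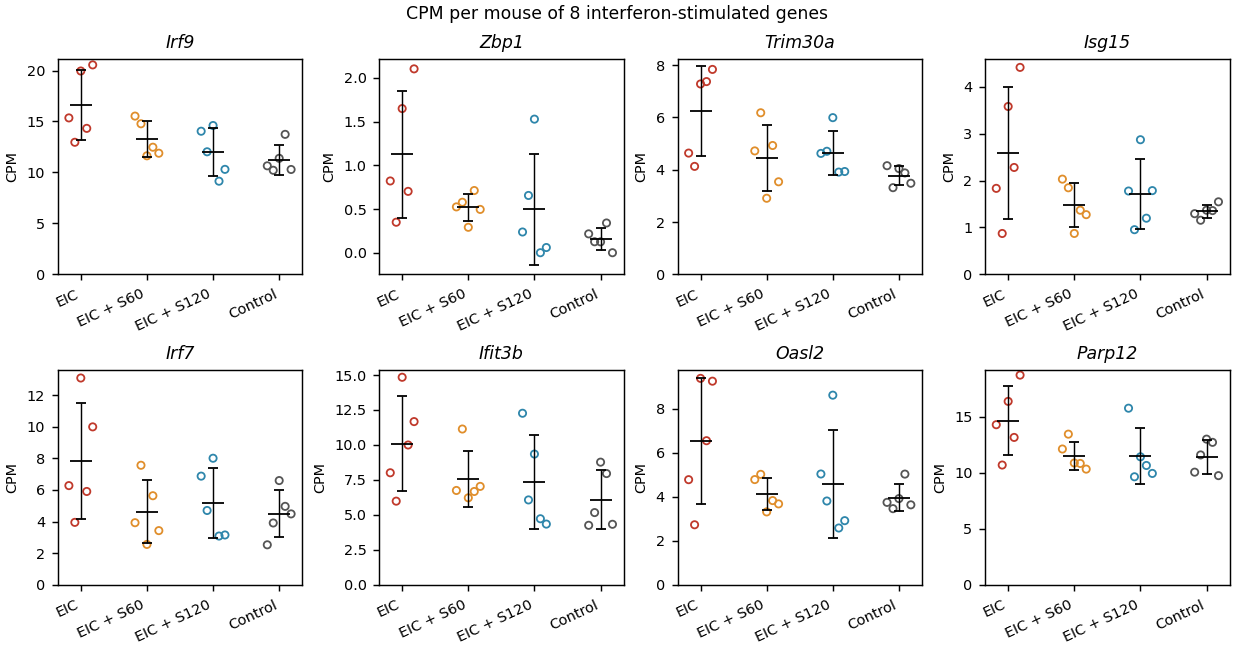
CPM per mouse (circles) of 8 interferon-stimulated genes in EIC, EIC + S60, EIC + S120 and Control kidneys, with the mean (bar) and SD (whiskers, n = 5 mice each). For Zbp1 each EIC circle lies above each Control circle, and for the other genes the EIC group is wider than Control and overlaps it.

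The ISG15 system modifies proteins with a ubiquitin-like tag. Isg15, the tag itself, had 1.83, 0.872, 3.58, 2.28 and 4.42 CPM in EIC mice, 2.03, 1.85, 0.872, 1.37 and 1.27 in EIC + S60 mice, 1.78, 0.953, 2.87, 1.198 and 1.79 in EIC + S120 mice and 1.29, 1.15, 1.37, 1.36 and 1.55 in Control mice. Isg15 was above every Control mouse in 4 EIC mice and below every Control mouse in mouse 66, with an LFC of 0.96 ± 0.34 and an adjusted p of 0.139. Usp18, which removes the tag and damps receptor signaling, had 1.79, 0.872, 2.39, 1.81 and 2.73 CPM in EIC mice, 1.900, 2.19, 1.92, 1.81 and 1.38 in EIC + S60 mice, 2.84, 2.08, 3.12, 1.39 and 1.19 in EIC + S120 mice and 1.08, 1.205, 1.99, 1.16 and 1.16 in Control mice. The ubiquitin ligase gene Trim25, whose product modifies RIG-I, had 65.2, 73.4, 70.9, 71.9 and 77.5 CPM in EIC mice, 76.8, 73.9, 76.9, 77.98 and 95.6 in EIC + S60 mice, 79.1, 92.7, 89.5, 89.6 and 79.6 in EIC + S120 mice and 98.7, 67.4, 61.97, 71.6 and 78.7 in Control mice. Usp18 overlapped between EIC and Control at an LFC of 0.56 ± 0.28, and Trim25 likewise at -0.08 ± 0.10. Herc6, the ISG15 ligase of mice, spanned 4.36 to 6.94 CPM in EIC, 3.199 to 7.39 in EIC + S60, 3.75 to 6.998 in EIC + S120 and 4.45 to 6.27 in Control. For Herc6, 23.8% of 50-base stretches of the longest transcript also occur in Gm45193, so its counts are uncertain.

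Of the double-stranded RNA enzymes, the oligoadenylate synthetase gene Oas1a had 0.869, 0.581, 1.76, 1.52 and 2.05 CPM in EIC mice, 0.917, 1.39, 0.756, 1.26 and 0.743 in EIC + S60 mice, 2.07, 0.953, 1.89, 1.01 and 0.596 in EIC + S120 mice and 0.6202, 0.602, 0.933, 0.544 and 1.24 in Control mice. It was above every Control mouse in EIC mice 67, 68 and 69. Its relative Oasl2 had 4.78, 2.73, 9.38, 6.55 and 9.25 CPM in EIC mice, 4.78, 5.02, 3.32, 3.83 and 3.68 in EIC + S60 mice, 5.04, 3.81, 8.62, 2.58 and 2.92 in EIC + S120 mice and 3.75, 3.46, 3.92, 5.03 and 3.64 in Control mice. Oasl2 was also above every Control mouse in the same 3 EIC mice and was below all of them in mouse 66. For Oasl1, a repressor of Irf7 translation in mice, the values were 0.676, 0.697, 2.27, 1.34 and 1.37 CPM in EIC mice, 1.31, 0.577, 0.931, 1.204 and 0.814 in EIC + S60 mice, 1.07, 0.655, 1.04, 0.6304 and 0.655 in EIC + S120 mice and 0.647, 0.577, 1.87, 1.09 and 0.928 in Control mice. The LFCs in EIC vs. Control were 0.83 ± 0.34 for Oas1a, 0.73 ± 0.31 for Oasl2 and 0.37 ± 0.33 for Oasl1, and none passed the threshold. Without both deeper Control libraries, the LFC of Oasl1 was -0.03. Oas1a shares 57.6% of its 50-base stretches with Oas1g, so reads may have been split between them or dropped. The kinase gene Eif2ak2 (PKR), which halts translation, and the RNA editor Adar had LFCs of -0.04 ± 0.08 and -0.01 ± 0.10 in EIC vs. Control. Adar shares 16.8% of its exon bases with Chrnb2, so its counts may include reads of that gene.

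The Ifit proteins bind foreign RNA, alone or as complexes with each other, and block its translation. Ifit1 had 3.38, 2.38, 6.99, 3.98 and 10.2 CPM in EIC mice, 2.62, 5.19, 2.27, 3.89 and 2.44 in EIC + S60 mice, 6.697, 1.79, 5.87, 2.52 and 1.67 in EIC + S120 mice and 2.400, 2.66, 5.600, 2.92 and 2.63 in Control mice. EIC mice 67 and 69 were above every Control mouse for Ifit1, and mouse 66 was below all of them. Ifit3 had 19.5, 11.3, 41.3, 29.1 and 31.8 CPM in EIC mice, 15.01, 32.9, 10.4, 19.1 and 14.7 in EIC + S60 mice, 33.2, 13.4, 22.2, 12.5 and 13.4 in EIC + S120 mice and 9.195, 14.98, 32.8, 18.5 and 12.9 in Control mice. Ifit3b had 8.01, 5.99, 14.8, 9.999 and 11.7 CPM in EIC mice, 6.75, 11.1, 6.22, 6.68 and 7.04 in EIC + S60 mice, 12.3, 6.07, 9.35, 4.73 and 4.35 in EIC + S120 mice and 4.26, 5.17, 8.77, 7.96 and 4.33 in Control mice. Both near-copies were highest in EIC mouse 67 and, within Control, in mouse 653. The LFCs in EIC vs. Control were 0.75 ± 0.42, 0.60 ± 0.40 and 0.74 ± 0.29 for Ifit1, Ifit3 and Ifit3b, all short of the threshold. Ifit3 shares 51.2% of its 50-base stretches with Ifit3b, and Ifit3b shares 45% with Ifit3, so the counts of each are uncertain. Ifit2 spanned 8.83 to 32.2 CPM in EIC, 10.1 to 23.8 in EIC + S60, 7.62 to 29.2 in EIC + S120 and 12.3 to 30.3 in Control, with an LFC of 0.07 ± 0.37.

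Among the genes that act on viral entry, release and nucleotides, Bst2 (tetherin, which holds budding virus at the cell surface) had 7.05, 7.09, 18.9, 13.1 and 14.7 CPM in EIC mice, 8.19, 11.3, 8.08, 7.93 and 9.198 in EIC + S60 mice, 12.6, 8.99, 12.3, 7.19 and 7.38 in EIC + S120 mice and 7.25, 8.91, 8.03, 9.18 and 7.89 in Control mice. Bst2 was above every Control mouse in EIC mice 67, 68 and 69 and below every Control mouse in mice 65 and 66. Ifitm3, which blocks virus fusion in endosomes, had 30.7, 21.6, 50.7, 40.8 and 49.3 CPM in EIC mice, 34.9, 36.8, 29.8, 28.6 and 22.1 in EIC + S60 mice, 38.8, 26.3, 43.9, 22.1 and 26.3 in EIC + S120 mice and 23.7, 24.8, 27.9, 28.3 and 23.7 in Control mice. Ifitm3 was above all Control mice in 4 EIC mice and below all of them in mouse 66 (LFC 0.59 ± 0.22, adjusted p = 0.164). The dNTP hydrolase gene Samhd1 had 26.8, 24.4, 33.7, 30.1 and 26.7 CPM in EIC mice, 28.6, 29.3, 24.02, 28.3 and 27.8 in EIC + S60 mice, 28.5, 24.5, 26.5, 23.3 and 26.02 in EIC + S120 mice and 26.7, 26.5, 24.9, 26.7 and 26.5 in Control mice. Samhd1 varied little within Control and differed by 0.11 ± 0.08 on the log2 scale in EIC vs. Control. Rsad2 (viperin) and its neighbour Cmpk2, a mitochondrial nucleotide kinase gene, had LFCs of -0.08 ± 0.22 and 0.06 ± 0.11. Rsad2 spanned 14.6 to 32.01 CPM in EIC, 13.3 to 24.01 in EIC + S60, 11.7 to 23.1 in EIC + S120 and 19.5 to 26.05 in Control.

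The ADP-ribosylation genes encode enzymes that mark proteins with ADP-ribose, and Dtx3l is the ubiquitin ligase bound to Parp9. Parp12 had 14.3, 10.7, 16.4, 13.2 and 18.7 CPM in EIC mice, 12.1, 13.4, 10.9, 10.8 and 10.3 in EIC + S60 mice, 15.8, 9.65, 11.4, 10.7 and 9.94 in EIC + S120 mice and 10.1, 11.6, 13.00, 12.7 and 9.75 in Control mice. Parp14 had 11.9, 10.2, 16.4, 12.9 and 19.7 CPM in EIC mice, 14.2, 14.7, 11.98, 12.4 and 10.5 in EIC + S60 mice, 14.3, 9.41, 12.7, 6.93 and 8.99 in EIC + S120 mice and 11.7, 9.46, 10.95, 12.2 and 10.8 in Control mice. Parp12 was above every Control mouse in all EIC mice but mouse 66, and Parp14 in EIC mice 67, 68 and 69. Parp9 had 16.7, 17.3, 21.9, 16.8 and 20.3 CPM in EIC mice, 20.3, 18.7, 16.98, 16.3 and 16.9 in EIC + S60 mice, 17.4, 16.6, 17.8, 15.4 and 15.96 in EIC + S120 mice and 17.8, 15.1, 17.7, 19.2 and 18.2 in Control mice. The LFCs in EIC vs. Control were 0.36 ± 0.14 for Parp12, 0.37 ± 0.18 for Parp14, 0.08 ± 0.09 for Parp9 and 0.11 ± 0.14 for Dtx3l, and none passed the threshold. Parp9 and Dtx3l overlap head to head on opposite strands over 9.4% and 8% of their exon bases, and without the strand setting reads there cannot be assigned to either.

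The remaining 10 genes all had positive LFCs in EIC vs. Control, 7 of them at an unadjusted p under 0.05. Trim30a, which in mice restrains Toll-like receptor signaling, had 4.63, 4.13, 7.28, 7.37 and 7.83 CPM in EIC mice, 4.72, 6.18, 2.91, 4.93 and 3.54 in EIC + S60 mice, 4.62, 4.704, 5.99, 3.91 and 3.93 in EIC + S120 mice and 4.15, 3.31, 4.04, 3.88 and 3.48 in Control mice. All EIC mice but mouse 66 were above every Control mouse for Trim30a. It stood just short of the threshold in edgeR (LFC 0.73 ± 0.20, adjusted p = 0.0515) and passed it in DESeq2 (adjusted p = 0.0159), which called 3 of the 39 genes (Irf9, Zbp1 and Trim30a) and 5.03% of all genes tested. Ifi35, whose product pairs with Nmi, had 7.15, 4.53, 7.85, 8.13 and 8.36 CPM in EIC mice, 6.03, 4.73, 3.72, 3.72 and 3.68 in EIC + S60 mice, 7.23, 3.63, 4.52, 3.47 and 4.35 in EIC + S120 mice and 4.07, 6.55, 5.23, 4.42 and 2.94 in Control mice. Epsti1 had 3.14, 1.69, 2.899, 2.46 and 3.995 CPM in EIC mice, 2.29, 3.98, 1.51, 3.39 and 1.91 in EIC + S60 mice, 3.14, 1.31, 0.917, 1.95 and 1.85 in EIC + S120 mice and 1.32, 1.43, 2.05, 1.84 and 1.47 in Control mice. Ifi35 and Epsti1 were each above every Control mouse in 4 EIC mice, with LFCs of 0.62 ± 0.22 and 0.82 ± 0.29. Ifi35 shares 16.8% of its exon bases with Gm11626.

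Of the others in that set, Ifi44 spanned 6.92 to 18.6 CPM in EIC, 6.98 to 12.1 in EIC + S60, 6.19 to 16.4 in EIC + S120 and 6.47 to 9.71 in Control. Rtp4, a Golgi chaperone gene, spanned 1.92 to 6.94 CPM in EIC, 1.45 to 4.04 in EIC + S60, 1.64 to 6.29 in EIC + S120 and 1.96 to 3.33 in Control. Rtp4 shares 13.9% of its exon bases with Gm45338, so its counts are uncertain. Sp100, a nuclear body component, spanned 7.67 to 15.9 CPM in EIC, 8.63 to 11.8 in EIC + S60, 8.07 to 13.1 in EIC + S120 and 7.31 to 11.5 in Control. Each of these was highest in EIC mouse 69 or 67, at LFCs of 0.71 ± 0.28, 0.83 ± 0.36 and 0.45 ± 0.18. Lgals3bp, a secreted galectin-binding glycoprotein, spanned 37.7 to 81.8 CPM in EIC, 41.6 to 55.2 in EIC + S60, 35.6 to 51.8 in EIC + S120 and 38.00 to 45.5 in Control. Ifi27 spanned 25.7 to 55.1 CPM in EIC, 24.3 to 33.4 in EIC + S60, 23.7 to 32.7 in EIC + S120 and 23.2 to 48.3 in Control. Tor3a, an ATPase of the endoplasmic reticulum, spanned 16.8 to 23.3 CPM in EIC, 15.5 to 21.2 in EIC + S60, 13.6 to 18.8 in EIC + S120 and 17.1 to 21.7 in Control. These abundant genes overlapped between EIC and Control, with LFCs of 0.45 ± 0.16, 0.21 ± 0.19 and 0.09 ± 0.11. Xaf1, whose product binds the caspase inhibitor XIAP, was the most variable of the 39 within EIC, with a coefficient of variation (CV) of 80.1%. Xaf1 had 5.12, 0.988, 4.43, 2.69 and 11.4 CPM in EIC mice, 1.38, 1.905, 5.23, 1.92 and 1.66 in EIC + S60 mice, 2.904, 0.953, 3.24, 1.39 and 1.97 in EIC + S120 mice and 5.04, 1.66, 1.49, 1.904 and 5.42 in Control mice. Its Control group also split, with mice 651 and 655 near the second highest EIC value.

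Levels between genes were compared per kb of exon. In EIC kidneys, Ifitm3 was highest at 56.97 ± 18.3 CPM per kb, followed by Ifi27 at 24.6 ± 7.95, Lgals3bp at 19.5 ± 6.28, Ifit3 at 15.2 ± 6.63, Bst2 at 13.5 ± 5.68 and Trim25 at 12.5 ± 0.775 CPM per kb (SD, n = 5). The mean of Ifitm3 differed from that of Ifi27 by more than their SDs together, while Ifi27, Lgals3bp, Ifit3, Bst2 and Trim25 lay within their spread of the next in order. The lowest were Zbp1 at 0.319 ± 0.206, Dhx58 at 0.388 ± 0.225 and Oasl1 at 0.488 ± 0.2503 CPM per kb, which also overlapped.

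The genes with and without an ISRE core in the window were set side by side as a description. The 13 with a core had a median LFC of 0.59 in EIC vs. Control, 6 of them at an unadjusted p under 0.05 and 0 past the threshold. The 18 with a window and no core had a median of 0.41, with 9 at an unadjusted p under 0.05 and 1, Irf9, past it. The 8 genes without a window were in neither set. They were Zbp1, which also passed the threshold, Dhx58, Usp18, Parp9, Parp14, Ifi27, Rtp4 and Tor3a. The LFC ranged from -0.08 to 0.96 with a core and from -0.08 to 0.82 without one.

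The comparisons with EIC alone ask what sparsentan did on top of the complexes. They share the EIC libraries with EIC vs. Control and with each other, so a high EIC mouse raises the LFC of the first and lowers those of the others. In EIC + S60 vs. EIC, 0 of the 39 genes passed the threshold, as did 0.0% of all genes tested, and DESeq2 also called 0, against 0.0357% of all genes. At an unadjusted p under 0.05, 7 genes were lower and 0 higher in EIC + S60, where 2.75% of all genes were lower. These were Ifi35, Trim30a, Parp12, Isg15, Irf9, Oasl2 and Irf7. The LFC was negative for 36 of the 39 genes, with a median of -0.33 over the list and -0.00 over all genes. None of the 39 lay apart between the groups, where 0.5% of all genes lay apart with EIC + S60 higher and 0.386% with EIC + S60 lower.

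**Figure D3:**
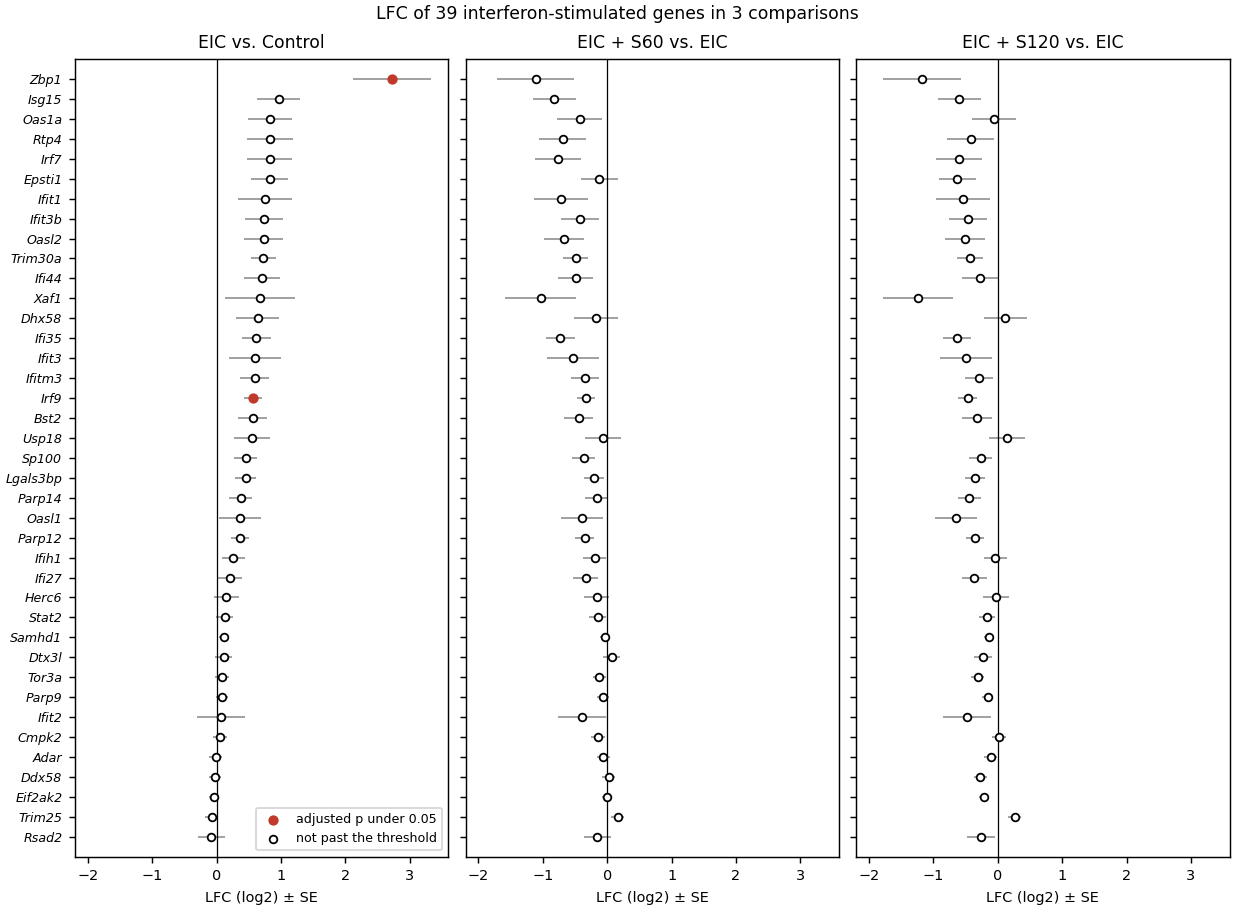
LFC (log2, horizontal axis, with SE) of 39 interferon-stimulated genes (vertical axis) in EIC vs. Control, EIC + S60 vs. EIC and EIC + S120 vs. EIC. Filled red points passed the threshold (Zbp1 and Irf9, in the left panel), and open points did not. Most genes lie right of 0 in the left panel (34 of 39) and left of 0 in the others (36 and 35 of 39), and all panels use the same EIC libraries.

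Ifi35 had the smallest p of the 39 in EIC + S60 vs. EIC, with a mean of 4.38 ± 1.02 CPM in EIC + S60, against 7.202 ± 1.56 CPM in EIC (SD, n = 5 each) and an LFC of -0.73 ± 0.22 (adjusted p = 0.738). EIC + S60 mice 73, 74 and 75 were below every EIC mouse for Ifi35. Irf9 averaged 13.3 ± 1.78 CPM in EIC + S60, against 16.6 ± 3.42 CPM in EIC, with an LFC of -0.33 ± 0.14. The EIC + S60 values of Irf9 all lay below those of EIC mice 67 and 69, and overlapped those of the other EIC mice. Zbp1 averaged 0.5198 ± 0.153 CPM in EIC + S60, against 1.12 ± 0.725 CPM in EIC, with an LFC of -1.11 ± 0.60 and an adjusted p of 0.829. EIC + S60 mouse 73 was below every EIC mouse for Zbp1, and the other 4 were not. Isg15 averaged 1.48 ± 0.465 CPM in EIC + S60, against 2.597 ± 1.41 CPM in EIC, an LFC of -0.82 ± 0.34. EIC + S60 mouse 73 was level with EIC mouse 66 for Isg15, at 0.872 CPM, and the other EIC + S60 mice were above it.

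In EIC + S120 vs. EIC, 0 of the 39 genes passed the threshold, as did 0.0572% of all genes tested, and DESeq2 also called 0, against 0.465% of all genes. At an unadjusted p under 0.05, 11 genes were lower and 1, Trim25, was higher in EIC + S120, where 4.27% of all genes were lower and 4.17% higher. The 11 were Irf9, Tor3a, Ifi35, Ddx58, Eif2ak2, Parp14, Parp12, Xaf1, Trim30a, Lgals3bp and Epsti1. The LFC was negative for 35 of the 39 genes, with a median of -0.33. For Trim25, all 5 EIC + S120 mice were above all 5 EIC mice, where 0.65% of all genes lay apart in this direction. Its mean was 86.1 ± 6.29 CPM in EIC + S120 and 71.8 ± 4.46 CPM in EIC (SD, n = 5 each), with an LFC of 0.26 ± 0.10 and an adjusted p of 0.453. Control mouse 651, at 98.7 CPM, was higher than every EIC + S120 mouse for Trim25.

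Irf9 had the smallest p of the 39 in EIC + S120 vs. EIC, with 12.02 ± 2.35 CPM in EIC + S120 and 16.6 ± 3.42 CPM in EIC and an LFC of -0.47 ± 0.14 (adjusted p = 0.3503). EIC + S120 mice 78, 80 and 81 were below every EIC mouse for Irf9, and mice 77 and 79 were not. Zbp1 ranged from 0 CPM in mouse 80 to 1.53 CPM in mouse 79, which EIC mice 67 and 69 alone exceeded, and had an LFC of -1.18 ± 0.60. Without EIC + S120 mouse 79, its LFC was -2.21. Dhx58, Usp18 and Cmpk2 had small positive LFCs of 0.12 ± 0.34, 0.15 ± 0.28 and 0.02 ± 0.11. For Usp18, EIC + S120 mice 77 and 79 were above every EIC mouse.

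Each sparsentan group was also set against Control, which shares its libraries between the comparisons. In EIC + S60 vs. Control, 0 of the 39 passed the threshold, as did 1.29% of all genes tested, and DESeq2 called 0, against 2.57% of all genes. Zbp1 (LFC 1.62 ± 0.60) and Epsti1 (0.70 ± 0.29) were the 2 at an unadjusted p under 0.05, both higher, where 6.24% of all genes were higher. In EIC + S120 vs. Control, 0 passed, as did 5.55% of all genes tested, and 5 were at an unadjusted p under 0.05, with Usp18 and Oas1a higher and Ddx58, Eif2ak2 and Tor3a lower, where 9.86% of all genes were higher and 10.1% lower. The medians were 0.07 and 0.12.

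Of the 39, 1 gene lay apart between EIC + S120 and Control, and DESeq2 called 1 there. Neither count exceeded the share over all genes given below, and in each case the gene was Eif2ak2. It had 20.3, 19.8, 22.5, 18.8 and 25.2 CPM in EIC mice, 20.5, 21.1, 21.4, 22.8 and 20.4 in EIC + S60 mice, 20.1, 19.4, 18.7, 15.4 and 17.98 in EIC + S120 mice and 21.1, 22.01, 20.2, 23.4 and 23.1 in Control mice. EIC + S120 mice were all below all Control mice and all EIC + S60 mice for Eif2ak2, where 3.02% and 0.936% of all genes lay apart in this direction. Its LFC was -0.26 ± 0.08 in EIC + S120 vs. Control (adjusted p = 0.0662) and -0.21 ± 0.08 in EIC + S120 vs. EIC + S60 (adjusted p = 0.474). DESeq2 put EIC + S120 vs. Control just under the threshold, at an adjusted p of 0.04995, where it called 8.02% of all genes. By edgeR, Eif2ak2 passed the threshold there without EIC + S120 mouse 77 (LFC -0.29) or without EIC mouse 69 (LFC -0.26). Ddx58 also passed without EIC + S120 mouse 77 (LFC -0.36), and Trim25 without Control mouse 651 (LFC 0.31). Between the doses, 0 of the 39 passed, as did 0.0643% of all genes tested, and DESeq2 called 0, against 0.579% of all genes. At an unadjusted p under 0.05, Ddx58, Eif2ak2 and Dtx3l were lower in EIC + S120, where 4.05% of all genes were lower. The median LFC between the doses was -0.00.

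The spread between mice was a measured feature of these genes. In EIC, each of the 39 genes was highest in mouse 69 (23 genes) or mouse 67 (16 genes), and lowest in mouse 66 (29), 65 (8) or 68 (2). In EIC + S60, mouse 72 was highest in 25 genes and mouse 73 lowest in 23. In EIC + S120, mice 77 and 79 were highest in 22 and 15 genes, and mouse 80 lowest in 23. Control mice shared the extremes more evenly, with mouse 654 highest in 14 and mouse 653 in 13. The median CV of the 39 genes was 32.2% in EIC, 17.9% in EIC + S60, 27.5% in EIC + S120 and 15.8% in Control. The median over 11020 tested genes in the same range of mean CPM was 12.7% in EIC, 11.1% in EIC + S60, 12.2% in EIC + S120 and 12.04% in Control. Those genes shared only the range and were not matched to the 39 in level, and the part of level in the CV was not tested.

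The mean log2(CPM + 1) over the 39 genes summarised each mouse. It was 3.30, 2.98, 3.82, 3.42 and 3.83 in EIC mice, 3.25, 3.45, 3.03, 3.28 and 3.13 in EIC + S60 mice, 3.53, 3.06, 3.50, 2.94 and 2.98 in EIC + S120 and 3.06, 3.07, 3.29, 3.25 and 3.13 in Control. EIC mice 67 and 69 were above all other 18 mice, while EIC mouse 66, EIC + S60 mouse 73 and EIC + S120 mice 78, 80 and 81 were below every Control mouse. The group means were 3.47 ± 0.36 in EIC, 3.23 ± 0.16 in EIC + S60, 3.20 ± 0.29 in EIC + S120 and 3.16 ± 0.10 in Control (SD, n = 5 each). No test was made of this summary, since the genes were chosen with earlier results known.

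Markers of macrophages and monocytes were set beside it. All 16 of these markers were tested, and in EIC vs. Control 7 rose past the threshold (Adgre1, Lyz2, C1qa, C1qb, C1qc, Cybb and Mpeg1), as did 1.61% of all genes. None of the 16 was at 0 in any library. Their sum was 144 to 347 CPM in EIC, 120.9 to 202 CPM in EIC + S60, 118 to 174 CPM in EIC + S120 and 111 to 136 CPM in Control. It was highest in mouse 67 (347 CPM) and mouse 69 (233 CPM) within EIC, in mouse 72 within EIC + S60 and in mouse 77 within EIC + S120, the mice that were highest or next to highest for the interferon-stimulated genes. In Control the order differed, with the lowest sum (111 CPM) in mouse 653, which had the highest mean of the 39 genes, and the highest sum (136 CPM) in mouse 652. The part of these cells in the levels of the 39 genes was not tested. Markers of conventional dendritic cells summed to 8.45 to 17.0 CPM in EIC and 8.83 to 11.5 CPM in Control. Of the 4 tested, 3 had a positive and 1 a negative LFC (-0.14) in EIC vs. Control, with a median of 0.24. Itgax (CD11c, which macrophages can also carry) rose in EIC vs. Control (LFC 1.17 ± 0.27, adjusted p = 0.0342) and in EIC + S60 vs. Control (LFC 1.21 ± 0.27, adjusted p = 0.0425). The 3 others passed in neither. Over all genes tested, 1.61% rose in EIC vs. Control and 1.29% changed in either direction in EIC + S60 vs. Control. Itgax had 1.23 to 3.41 CPM in EIC and 0.436 to 1.09 CPM in Control. These groups lay apart, as they did with EIC higher for 1.98% of all genes tested. T and NK cell markers summed to 2.05 to 5.51 CPM in EIC, 1.98 to 3.67 CPM in EIC + S60, 1.198 to 2.81 CPM in EIC + S120 and 1.12 to 1.86 CPM in Control. The EIC and Control sums did not overlap, by a small margin. Of these 11 markers 6 were among the listed genes and 4 were tested, all with a positive LFC in EIC vs. Control (median 0.68). By itself, 0 of the 4 lay apart with EIC higher, as did 1.98% of all genes tested. At an unadjusted p under 0.05, 2 were higher, as were 7.66% of all genes, and 0 passed the threshold. The part of these cells in the levels of the 39 genes was not tested either. Neutrophil markers summed to at most 3.604 CPM, with Ly6g at 0 in 11 libraries, and B and plasma cell markers to at most 4.98 CPM.

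**Figure D4:**
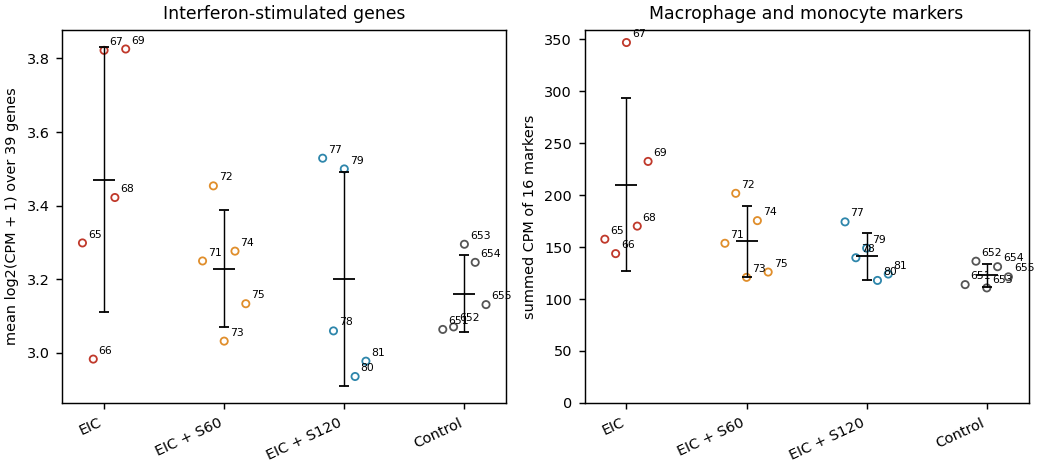
Left, mean log2(CPM + 1) of the 39 interferon-stimulated genes per mouse; right, summed CPM of 16 macrophage and monocyte markers per mouse, with mouse numbers, group means (bars) and SD (whiskers, n = 5 each). EIC mice 67 and 69 are highest in both panels, at 3.82 and 3.83 on the left and at 347 and 233 CPM on the right.

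The rest of the pathway was described from lists of other genes. Of 25 genes for interferon ligands, receptors and signaling, 18 were tested. In EIC vs. Control, Irf1, a transcription factor that interferon-gamma also induces, rose (LFC 0.78 ± 0.20, adjusted p = 0.0441). The phosphatase gene Ptpn11 (SHP2) fell by 0.17 ± 0.05 on the log2 scale (adjusted p = 0.0467). The receptor subunit gene Ifnar2 did not pass the threshold in EIC vs. Control (LFC 0.25 ± 0.07, adjusted p = 0.0674).

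Of 20 gene symbols listed for sensing upstream of interferon, 16 were tested and 0 passed the threshold in EIC vs. Control by edgeR. The list also holds adaptors, kinases and transcription factors, and Cgas and Sting1 on it are other names of the tested Mb21d1 and Tmem173. At an unadjusted p under 0.05, where 7.66% of all genes were higher, 0 of the 16 were lower and 4 were higher. These were Unc93b1, which carries Toll-like receptors to endosomes, the endosomal receptor genes Tlr7 and Tlr9, and the ribonuclease subunit gene Rnaseh2b. Unc93b1 averaged 15.00 ± 3.65 CPM in EIC and 11.2 ± 0.422 CPM in Control (SD, n = 5 each). Every EIC mouse was above every Control mouse for Unc93b1, where 1.98% of all genes tested lay apart in this direction. The adjusted p of Unc93b1 was 0.0602 in edgeR and 0.0264 in DESeq2. Tlr7 averaged 2.51 ± 1.02 CPM in EIC and 1.25 ± 0.362 CPM in Control. Its groups overlapped. Rnaseh2b had LFCs of 0.25 ± 0.09 in EIC vs. Control and 0.27 ± 0.09 in EIC + S120 vs. EIC, neither past the threshold, and rose in EIC + S120 vs. Control (LFC 0.52 ± 0.09, adjusted p = 0.00169). Tlr9 was below 1 CPM in every library.

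Of 52 further interferon-induced genes, 41 were tested. Over all genes tested in EIC vs. Control, 1.61% rose, 2.97% changed in either direction and 47.6% had a positive LFC. Of the 41, 35 had a positive LFC, with a median of 0.37, while 1 fell and 4 rose past the threshold. Those that rose were the NAD salvage enzyme gene Nampt (LFC 0.52 ± 0.06), the nuclear body gene Sp110 (0.70 ± 0.17), the immunoproteasome subunit gene Psmb9 (1.19 ± 0.29) and the immunity-related GTPase gene Ifi47 (1.35 ± 0.34). Nampt is also a metabolic and clock-controlled gene, and Psmb9 and Ifi47 are strongly induced by interferon-gamma. Tdrd7 fell by 0.32 ± 0.07 on the log2 scale. Nampt had 271 to 319 CPM in EIC, 254 to 283 in EIC + S60, 295 to 341 in EIC + S120 and 203 to 215 in Control. In EIC + S60 vs. Control, 1 of the 41 rose and 0 fell past the threshold, where 1.29% of all genes changed. In EIC + S120 vs. Control, 1 rose and 1 fell, where 5.55% of all genes changed. Sp110 was the 1 of the 41 that passed in EIC + S120 vs. EIC, where it fell by 0.95 ± 0.17 on the log2 scale (adjusted p = 0.0454). Sp110 had 3.23, 2.499, 3.98, 3.57 and 3.26 CPM in EIC mice, 2.42, 2.94, 1.63, 1.81 and 2.37 in EIC + S60 mice, 1.72, 1.37, 2.14, 1.702 and 1.61 in EIC + S120 mice and 2.08, 2.16, 1.87, 2.18 and 1.86 in Control mice. EIC + S120 mice were all below all EIC mice for Sp110, where 77 of 13990 genes tested lay apart in this direction. EIC mice were all above all Control mice for Sp110, where 1.98% of all genes lay apart in this direction. In EIC + S60 vs. EIC, 0 of the 41 passed by edgeR. At an unadjusted p under 0.05, 11 were lower and 0 higher, where 2.75% of all genes were lower.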

How the data were processed

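Kidney RNA of 20 mice was sequenced after poly(A) selection, 1 library per mouse. The authors deposited a table of raw, unscaled counts for each gene. Per the submitters' processing notes, the authors used Trimmomatic 0.36, STAR 2.5.2b, GRCm38 and featureCounts of Subread 1.5.2. Neither the gene annotation nor the strand setting is given in the sources used here.

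The labels gave each mouse its group, and the methods of the study gave the doses and the days of injection. Counts were scaled by TMM and fitted in edgeR 4.0.16 (R 4.3.3) with 1 coefficient per group over all 20 libraries, by the robust quasi-likelihood method. Tests were two-sided with Benjamini-Hochberg adjustment over all 13990 genes that reached 10 counts in 5 or more libraries, for 6 comparisons. The SE of each LFC was taken from limma-trend (limma 3.58.1, prior count 2). Alternatives were RLE size factors, DESeq2 1.42.0, limma-voom, no filter or filterByExpr, only the groups compared, and leaving out each library. Leaving out both deeper Control libraries (651 and 652) was added after seeing the data.

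The members, lists and tests were chosen with earlier results of these data known. Values per mouse are given for genes past the threshold in any comparison by edgeR, or by DESeq2 in the comparisons of EIC with Control and of each dose with EIC, and for the 3 genes of each role with the smallest p in EIC vs. Control. Other lists name their called genes in EIC vs. Control and up to 4 with the smallest p, and 1 gene of the interferon signaling list is not reported here. Eif2ak2 and Xaf1 were shown per mouse after their values were seen. Exon lengths and overlaps are from GENCODE vM21. Total counts of 12662345 to 38651781 set the precision, and single counts decide the lowest genes.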

Additional observations from a re-analysis of the deposited data

Results flagged for a closer look

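In each group of 5 mice, a gene's highest or lowest value was compared with the nearest other value, as a share of the group's range (Dixon's ratio). Of 156 pairs of a gene and a group, 9 had a value past the 95% critical ratio, where chance alone gives about 1 in 20 groups. None was in EIC, 4 were in EIC + S60, 1 in EIC + S120 and 4 in Control.

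All 4 in Control were mouse 653. It was the highest of Control for Usp18 (1.99 CPM), Ifit1 (5.60 CPM) and Tor3a (21.7 CPM), and the lowest for Samhd1 (24.9 CPM). In EIC + S60, mouse 72 was the highest for Ifit3b (11.1 CPM) and Sp100 (11.8 CPM), mouse 75 for Trim25 (95.6 CPM) and mouse 73 for Xaf1 (5.23 CPM). In EIC + S120, mouse 77 was the highest for Ifi35 (7.23 CPM).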

How the results depend on the processing

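No paired analysis was possible because the mouse numbers differ between groups. In EIC vs. Control, the number of the 39 genes past the threshold was 2, with a range of 0 to 6 when single libraries were left out. It was 1 with only the groups compared in the fit and 0 without both deeper Control libraries, where 3 mice remain in Control. In EIC + S120 vs. Control it was 0, with a range of 0 to 2 when single libraries were left out and 1 by DESeq2. In the other comparisons it was 0 under every alternative run. Irf9 and Zbp1 were both past the threshold under RLE size factors, no filter, filterByExpr, limma-voom and DESeq2, and the alternatives without a filter moved neither. Some LFCs changed sign. In EIC vs. Control these were Trim25 (0.0352, against -0.08 with all libraries), Oasl1 (-0.0292, against 0.37) and Ifit2 (-0.161, against 0.07) without both deeper Control libraries, and Adar (0.0152) by limma-voom. With single libraries left out, LFCs that crossed 0 in EIC vs. Control ranged from -0.0819 to 0.0239 for Ddx58, -0.143 to 0.0501 for Trim25, -0.109 to 0.0117 for Eif2ak2, -0.055 to 0.055 for Adar, -0.137 to 0.281 for Ifit2, -0.291 to 0.0349 for Rsad2 and -0.0171 to 0.15 for Cmpk2. In EIC + S60 vs. EIC they ranged from -0.0366 to 0.0801 for Ddx58, -0.462 to 0.218 for Dhx58, -0.265 to 0.0919 for Usp18, -0.0576 to 0.0622 for Eif2ak2, -0.262 to 0.0605 for Rsad2, -0.0978 to 0.0327 for Samhd1, -0.113 to 0.00326 for Parp9, -0.0179 to 0.161 for Dtx3l and -0.322 to 0.0332 for Epsti1. In EIC + S120 vs. EIC they ranged from -0.163 to 0.0678 for Ifih1, -0.0815 to 0.507 for Dhx58, -0.0452 to 0.308 for Usp18, -0.135 to 0.0752 for Herc6, -0.285 to 0.145 for Oas1a and -0.0769 to 0.0902 for Cmpk2. The causes were not tested. The median LFC over the 39 genes moved by no more than 1 SD in every alternative run for it. That SD was the spread between mice of the mean log2(CPM + 1) over these genes, pooled over the groups compared. Within single groups that SD was 0.10 to 0.36, which is wide beside medians of 0.45 and -0.33. Staying within it was therefore a weak check. With single libraries left out, the median was 0.32 to 0.59 in EIC vs. Control. It was -0.43 to -0.15 in EIC + S60 vs. EIC and -0.45 to -0.21 in EIC + S120 vs. EIC. Depth limits Zbp1 most, with 0 to 8 counts in Control.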
